A study of Mus musculus with 2 samples.

Results

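The CYP2C enzymes are a large cytochrome P450 subfamily of mouse liver, and 10 named genes of it were examined, Cyp2c29, Cyp2c37, Cyp2c38, Cyp2c39, Cyp2c40, Cyp2c44, Cyp2c50, Cyp2c54, Cyp2c55 and Cyp2c70. The members were chosen by gene symbol, as the probe sets annotated with exactly 1 symbol equal to a member, with the mean taken where a gene had several. This gave 9 members with 11 probe sets, out of 22180 genes on the array. Cyp2c44 had no probe set under that symbol and was skipped. The RefSeq gene table lists Cyp2c44 as a synonym of Cyp2c23, whose probe set is described with the other Cyp2c genes.

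The study compared liver RNA of E4bp4-LKO mice with that of wild-type (WT) mice. All mice were male and received a high-fat diet from the age of 2 months for 12 weeks. The light cycle had 12 hours of light and 12 hours of dark. E4BP4, encoded by Nfil3, is a basic leucine zipper repressor that shares its DNA element with DBP, TEF and HLF, activators of the PAR bZIP group. The labels give neither the deleted part of the gene, nor the cells in which it was deleted, nor the hour at which the livers were taken. RNA of several mice was pooled for each genotype and each pool was hybridised to 1 whole-transcript array, so there are no replicates, no error and no test of genotype, and each difference below describes these 2 arrays only. Values are log2 intensities made with RMA, which corrects background, equalises the arrays and summarises probes. Each difference is E4bp4-LKO minus WT. A gene is called above the floor when its mean over both arrays exceeded 4.20, the median of all genes, and 11090 genes did.

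CYP2C enzymes sit in the membrane of the endoplasmic reticulum and use electrons from the P450 reductase to insert oxygen into fatty acids, drugs and steroids. Those that act on arachidonic acid either form epoxyeicosatrienoic acids, lipid mediators that soluble epoxide hydrolase turns into diols, or hydroxylate the chain. Several of the genes are transcribed mainly in hepatocytes near the central vein, and the nuclear receptors CAR and PXR, with HNF4α, are known activators of the family. In mice CYP2C70 has a separate task, the hydroxylation that makes muricholic acids from other bile acids.

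The targeted gene was checked first. Nfil3 stood at 4.47 on the E4bp4-LKO array and at 5.94 on the WT array, a difference of -1.47. Where its probes lie with respect to the deletion was not examined. Hepatocyte markers were bright on both arrays: all 8 listed genes were above the floor, none differed by 1.5-fold, and their summed level was 14.81 in E4bp4-LKO and 14.77 in WT (log2 of the summed linear intensities). Markers of some other cells differed between the pools. Of 5 skeletal muscle markers, 4 were above the floor and all 4 were at least 1.5-fold lower in E4bp4-LKO, with a summed level of 8.11 in E4bp4-LKO against 9.18 in WT. All 6 stellate cell markers had negative differences, with a summed level of 10.58 in E4bp4-LKO against 10.93 in WT. The summed level of 6 endothelial markers was 10.95 in E4bp4-LKO and 11.12 in WT, and that of 5 macrophage markers 10.19 in E4bp4-LKO and 10.23 in WT. Of 5 T and NK cell markers, 3 were above the floor and all 3 had positive differences, with Cd4 (0.66) past 1.5-fold. Cd3g and Klrb1c, with means below the floor, had lower values on the E4bp4-LKO array. The median difference was 0.42 above the floor and 0.10 over all 5. Their summed level was 7.22 in E4bp4-LKO against 6.95 in WT. Kidney tubule and adipocyte markers were all below the floor on both arrays. The part of these markers in the Cyp2c differences was not tested. In bulk RNA, fewer cells of a type and less RNA per cell cannot be told apart.

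The 9 members differed between the pools in both directions. Members and lists were chosen with earlier results of these data known, so a count beside the background is a description only. Of the 9, 2 were at least 1.5-fold higher in the E4bp4-LKO pool (Cyp2c54 and Cyp2c70) and 1 was at least 1.5-fold lower (Cyp2c55), while in the background of all genes above the floor 3.57% passed 1.5-fold in either direction, 1.51% higher and 2.06% lower. Positive differences were seen for 5 members and negative ones for 4. Their median was 0.12, against -0.02 for all genes above the floor, and their median absolute difference was 0.33, against 0.14. The member differences ran from -0.60 to 1.78 with a standard deviation between members of 0.70, against 0.27 between all genes above the floor. All 9 members were above the floor on both arrays, so none was retained through only its brighter pool.

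**Figure D1:**
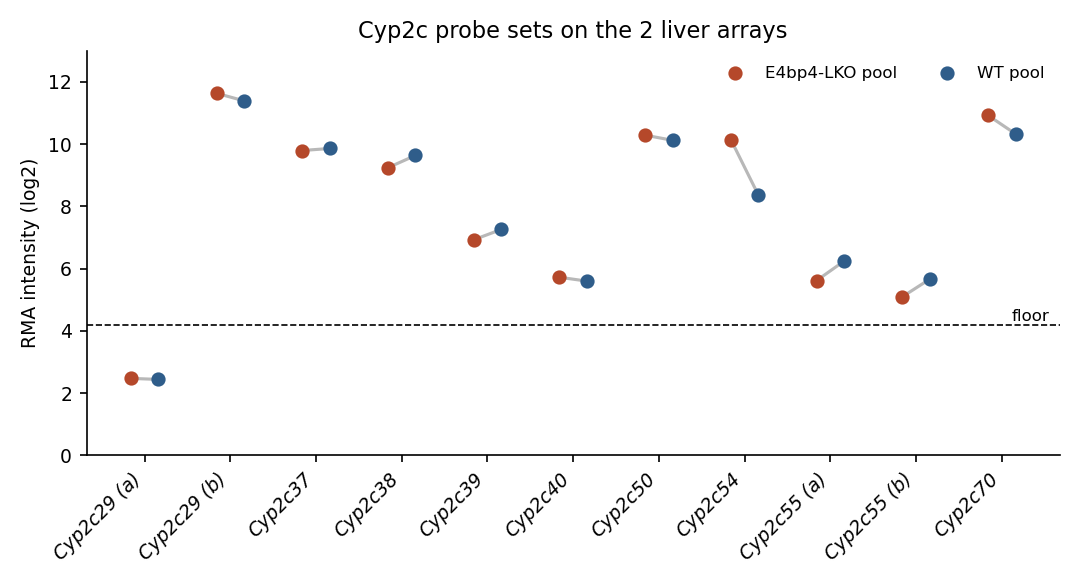
RMA intensity (log2) of the 11 member probe sets on the E4bp4-LKO array (left point of each pair) and the WT array (right point). The dashed line is the floor at 4.20; Cyp2c54 has the widest gap, and 1 of the Cyp2c29 probe sets lies below the floor on both arrays.

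Among the arachidonic acid epoxygenases, Cyp2c54 stood far from the rest. CYP2C54 forms epoxides and hydroxylated products of arachidonic acid. Its probe set read 10.14 on the E4bp4-LKO array and 8.36 on the WT array, a difference of 1.78 or 3.43-fold. Only 6 of the 11090 genes above the floor had a higher difference. Of the 500 genes above the floor nearest to it in mean level, 1 (0.2%) differed by at least as much in either direction.

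Cyp2c50, the next gene on the chromosome, also encodes an enzyme that forms epoxides. It read 10.29 on the E4bp4-LKO array and 10.12 on the WT array, a difference of 0.16. The difference of Cyp2c54 exceeded that of Cyp2c50 by 1.61. With no replicates this gap has no test, but both probe sets lay well above the floor on both arrays.

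Cyp2c29, an epoxygenase of arachidonic acid and one of the most studied liver members, had 2 probe sets of very different brightness. The bright one read 11.63 on the E4bp4-LKO array and 11.39 on the WT array, a difference of 0.24. The dim one read 2.47 on the E4bp4-LKO array and 2.44 on the WT array, below the floor, where no difference can be read. The average over both gave 0.14, which lies under the difference of the bright probe set because the dim one enters with equal weight.

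Cyp2c38 and Cyp2c39, which encode epoxygenases, were both on the lower side. Cyp2c38 read 9.24 on the E4bp4-LKO array and 9.64 on the WT array, a difference of -0.39. Cyp2c39, whose enzyme is also known to act on retinoic acid, read 6.93 on the E4bp4-LKO array and 7.26 on the WT array, a difference of -0.33. Neither reached 1.5-fold. Differences at least as large were found in 8.2% of the 500 genes of like level for Cyp2c38 and in 11.8% for Cyp2c39.

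The members known mainly as arachidonic acid hydroxylases were Cyp2c37, Cyp2c40 and Cyp2c55. Cyp2c55 was the lowest member. Its first probe set read 5.61 on the E4bp4-LKO array and 6.24 on the WT array, and its second read 5.09 on the E4bp4-LKO array and 5.66 on the WT array. The probe sets gave differences of -0.62 and -0.57, closer to each other than the standard deviation of 0.22 found between the probe sets of a gene over 555 genes with 2 of them. Their average, -0.60 or 1.51-fold lower, lay only just past the 1.5-fold threshold of 0.58 on the log2 scale. Its size was under that threshold once the median difference of all genes above the floor was subtracted.

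Cyp2c37 and Cyp2c40 were close to 0. Cyp2c37 read 9.79 on the E4bp4-LKO array and 9.86 on the WT array, a difference of -0.07. Cyp2c40 read 5.72 on the E4bp4-LKO array and 5.60 on the WT array, a difference of 0.12. Among the genes of like level, 69.4% differed by at least as much as Cyp2c37 and 60.4% by at least as much as Cyp2c40.

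Cyp2c70, the muricholic acid enzyme, was higher in the E4bp4-LKO pool. It read 10.92 on the E4bp4-LKO array and 10.33 on the WT array, a difference of 0.59 or 1.51-fold. This is just past the threshold, at a bright level where few genes differ so much: 2.8% of the 500 genes of like level did. At 2-fold, Cyp2c54 was the only member called, beside 0.388% of all genes above the floor higher and 0.406% lower (0.794% together). At 1.3-fold, 2 members were higher and 2 lower, Cyp2c38 joining Cyp2c55, beside 5.16% of genes higher and 6.18% lower (11.3% together).

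**Figure D2:**
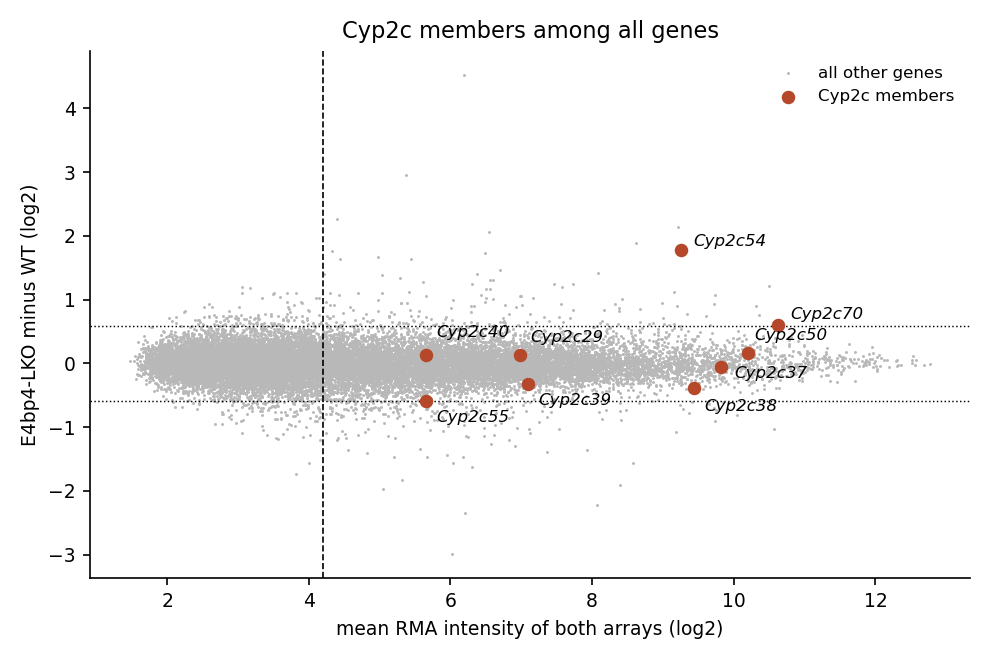
Difference between the arrays (E4bp4-LKO minus WT, log2) against the mean intensity of both arrays (log2) for 22180 genes, with the 9 Cyp2c members in red. Dashed and dotted lines mark the floor and 1.5-fold; Cyp2c54 lies at 1.78, away from genes of like level, and 6 members lie between the dotted lines.

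The genes whose pair of values lay nearest to that of Cyp2c54 on both arrays were Slco1a1, an organic anion uptake transporter (distance 0.26 on the log2 scale), Egfr, a growth factor receptor (0.49), and Angptl8, a regulator of lipoprotein lipase (0.62). Slco1a1 read 10.28 on the E4bp4-LKO array and 8.14 on the WT array. Nearest to Cyp2c55 were Slfn5, Supt3 and Proser3, all within 0.05. With only 2 arrays this likeness is that of 2 numbers.

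Most mouse Cyp2c genes lie side by side on chromosome 19, and the RefSeq table (GRCm38.p6) has 15 protein-coding genes and 4 pseudogenes there. Cyp2c54 lies between Cyp2c37 and Cyp2c50, and Cyp2c70 follows Cyp2c50. The differences of Cyp2c37, Cyp2c54, Cyp2c50 and Cyp2c70, in that order, were -0.07, 1.78, 0.16 and 0.59. Cyp2c54 therefore differed by 1.84 more than 1 neighbour and by 1.61 more than the other. Cyp2c38 and Cyp2c39, the lower pair of epoxygenases, lie near each other, with the pseudogene Cyp2c72-ps listed between them.

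The other Cyp2c genes above the floor differed by less than 1.5-fold. Cyp2c23, whose enzyme is an arachidonic acid epoxygenase long known as CYP2C44, read 10.48 on the E4bp4-LKO array and 10.41 on the WT array, a difference of 0.08. Cyp2c68 read 9.32 on the E4bp4-LKO array and 9.30 on the WT array, and Cyp2c69 read 6.20 on the E4bp4-LKO array and 5.95 on the WT array. A probe set that lists both Cyp2c67 and Cyp2c68 read 11.28 on the E4bp4-LKO array and 11.26 on the WT array, so at this brightness its difference was 0.03. Cyp2c65, Cyp2c66 and the pseudogene Cyp2c53-ps were below the floor on both arrays. Probe sequences were not examined, so near-identical Cyp2c genes may share signal, and the value of a single gene is uncertain in that respect.

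**Figure D3:**
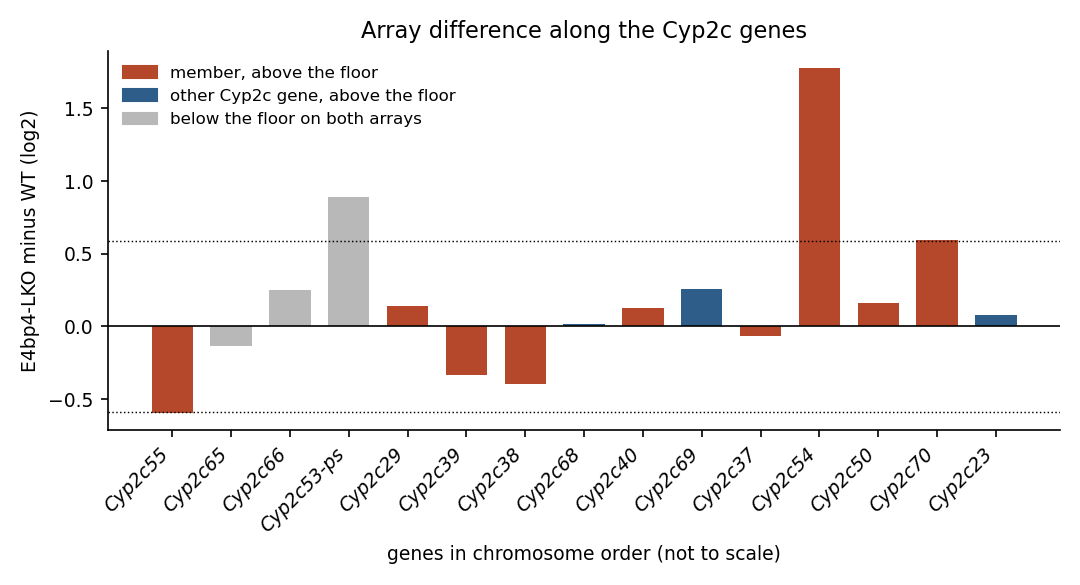
Difference between the arrays (E4bp4-LKO minus WT, log2) for 15 Cyp2c genes with a probe set of their own, in chromosome order and not to scale. Dotted lines mark 1.5-fold; Cyp2c54 at 1.78 stands between Cyp2c37 at -0.07 and Cyp2c50 at 0.16, and grey bars were below the floor on both arrays.

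Promoter windows, from 250 bases before to 50 after the annotated start, came from RefSeq (GRCm38.p6) for 8 of the 10 named members. The members without an entry were Cyp2c44 and Cyp2c54. The windows of Cyp2c37 and Cyp2c50, which flank Cyp2c54, are shown because these neighbours had small differences and their windows are alike: 264 of 300 bases matched (88.0%), against a median of 58.0% over the 91 pairs of Cyp2c windows. The Cyp2c37 window is chr19:39992174-39992473 and the Cyp2c50 window chr19:40089429-40089728, both on the plus strand. No letters are in capitals, since neither holds any of the 3 elements searched.
Cyp2c37: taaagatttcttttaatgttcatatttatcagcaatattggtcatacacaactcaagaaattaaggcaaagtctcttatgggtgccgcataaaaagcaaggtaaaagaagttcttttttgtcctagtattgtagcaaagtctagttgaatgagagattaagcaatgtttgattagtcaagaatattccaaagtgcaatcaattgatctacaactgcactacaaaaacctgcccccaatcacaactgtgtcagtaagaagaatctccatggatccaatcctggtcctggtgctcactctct
Cyp2c50: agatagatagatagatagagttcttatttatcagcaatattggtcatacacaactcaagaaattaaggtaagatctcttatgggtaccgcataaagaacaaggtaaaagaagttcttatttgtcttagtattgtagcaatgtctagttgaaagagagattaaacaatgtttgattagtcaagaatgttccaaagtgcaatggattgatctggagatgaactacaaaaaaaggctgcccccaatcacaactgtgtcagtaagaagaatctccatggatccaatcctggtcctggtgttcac

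The elements searched, on both strands, were TTANGTAA, which E4BP4 and the PAR bZIP factors bind, CAAAGTCCA, an HNF4 element, and GTTAATNAT, the first part of an HNF1 element; these do not overlap in the Cyp2c windows. TTANGTAA was found in 2.32% of 32851 promoter windows of the table and in 1 of the 14 Cyp2c windows, that of Cyp2c38. The match, read on the opposite strand, lies 84 to 77 bases before the start. Cyp2c38 was one of the members with a negative difference (-0.39). Its window is chr19:39463026-39463325 on the minus strand, with the match in capitals. The windows of Cyp2c38 and of the first Cyp2c39 start are 82.0% identical, and that of Cyp2c39 holds no match.
Cyp2c38: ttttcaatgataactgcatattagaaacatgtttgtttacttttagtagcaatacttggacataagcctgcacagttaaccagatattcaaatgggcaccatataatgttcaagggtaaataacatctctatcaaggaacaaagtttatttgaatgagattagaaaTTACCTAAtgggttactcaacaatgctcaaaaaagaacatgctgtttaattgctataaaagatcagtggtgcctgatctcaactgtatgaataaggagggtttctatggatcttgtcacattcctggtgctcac

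CAAAGTCCA was found in 0.475% of all windows and in 6 of the 14 Cyp2c windows, those of Cyp2c40, Cyp2c65, Cyp2c67, Cyp2c68, Cyp2c69 and Cyp2c70. Windows of this group are partly copies of each other, up to 92.3% identical for Cyp2c68 and Cyp2c69, so the 6 are not independent. Of the members, Cyp2c70 (0.59) and Cyp2c40 (0.12) hold it. GTTAATNAT was found in 0.801% of all windows and in 0 of the 14. The windows of Cyp2c70, chr19:40187237-40187536 on the minus strand with the match in capitals, and of Cyp2c55, chr19:39006769-39007068 on the plus strand with none, are shown as those of the members past 1.5-fold that have an entry. A match is a run of letters and no evidence of binding, and no match says only that these letters are not in the window.
Cyp2c70: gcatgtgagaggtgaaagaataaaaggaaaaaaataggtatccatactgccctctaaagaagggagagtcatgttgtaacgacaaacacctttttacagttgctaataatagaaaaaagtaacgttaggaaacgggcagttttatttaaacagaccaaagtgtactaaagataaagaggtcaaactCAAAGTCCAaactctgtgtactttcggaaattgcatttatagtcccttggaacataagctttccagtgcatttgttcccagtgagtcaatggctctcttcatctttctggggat
Cyp2c55: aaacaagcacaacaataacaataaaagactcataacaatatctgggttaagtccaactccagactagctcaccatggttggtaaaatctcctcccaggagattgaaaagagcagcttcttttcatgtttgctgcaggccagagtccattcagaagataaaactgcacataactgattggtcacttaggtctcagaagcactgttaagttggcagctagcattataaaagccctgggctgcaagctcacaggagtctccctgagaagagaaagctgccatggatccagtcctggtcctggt

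The Cyp2c genes had both directions among them, and so did the Cyp2d, Cyp2j, Cyp3a, Cyp4a and Cyp4f genes above the floor. Of 5 Cyp3a genes, 2 were at least 1.5-fold higher and 1 was lower. Of 62 other genes of P450 families 1 to 4, 36 were above the floor. Their median was -0.05. Past 1.5-fold were 3 on the higher side and 6 on the lower side, beside 1.51% and 2.06% of all genes above the floor. Those farthest from 0 were the steroid and drug hydroxylase genes Cyp2b13 (-2.99), Cyp2a4 (-1.38), Cyp2a5 (-1.04), Cyp2b9 (-1.02), Cyp2a22 (-0.73) and Cyp3a59 (-0.62) on the lower side and Cyp4a12b (1.42), a fatty acid hydroxylase gene, and Cyp3a44 (1.27) on the higher side. By subfamily, 3 of 4 Cyp2a genes and both Cyp2b genes were at least 1.5-fold lower, and all of their differences were negative. The differences of the Cyp2d genes above the floor lay between -0.18 and 0.25. The 12 Cyp2c genes above the floor, members and others, spanned 2.37 on the log2 scale. The span was 1.96 for 2 Cyp2b genes, 1.89 for 5 Cyp3a genes and 1.70 for 4 Cyp4a genes. The width for Cyp2c rested on Cyp2c54 (1.78), since the next highest gene was Cyp2c70 (0.59). These spans rest on different numbers of genes and on 1 array per genotype, so no difference between subfamilies was tested.

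**Figure D4:**
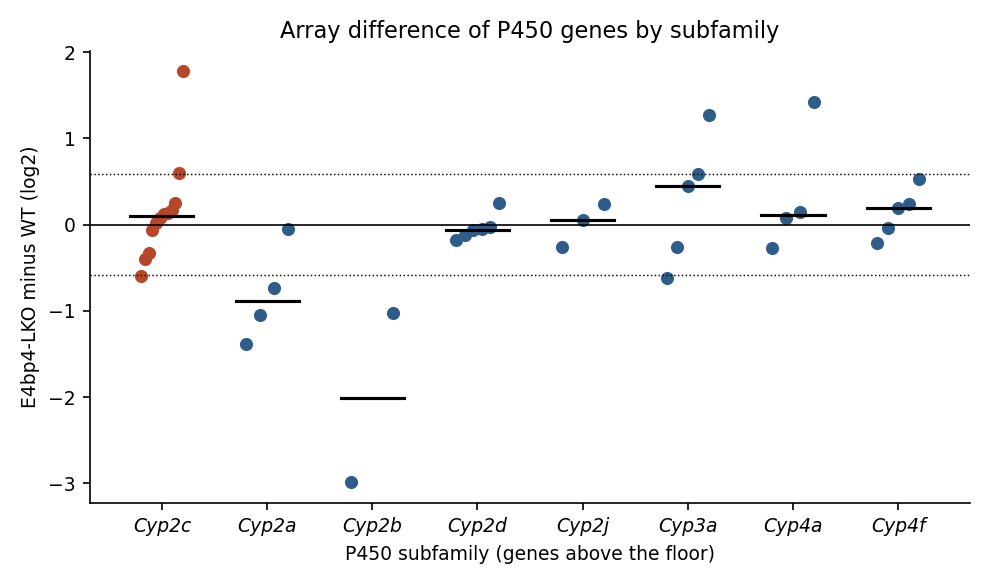
Difference between the arrays (E4bp4-LKO minus WT, log2) of P450 genes above the floor, with a point per gene and a bar at the median of each subfamily. Dotted lines mark 1.5-fold. The 12 Cyp2c genes lie on both sides of 0, with a median of 0.10. So do the Cyp2d, Cyp2j, Cyp3a, Cyp4a and Cyp4f genes, while the Cyp2a and Cyp2b genes are all below 0.

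Of 8 listed genes of electron and heme supply, 7 had a probe set of their own. The exception was Por, the P450 reductase itself, so the main electron donor has no value here. All 7 were above the floor, none reached 1.5-fold and the median was -0.03. Alas1, the first enzyme of heme synthesis, differed by -0.25, Hmox1, which breaks heme down, by -0.18, Fech, which inserts the iron, by -0.15, and Cyb5r3, the cytochrome b5 reductase, by 0.04.

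Downstream of the epoxygenases, the epoxide hydrolases differed from each other. Ephx1, the microsomal enzyme, read 10.20 on the E4bp4-LKO array and 10.82 on the WT array, a difference of -0.62. Ephx2, the soluble enzyme that acts on epoxyeicosatrienoic acids, read 10.85 on the E4bp4-LKO array and 10.89 on the WT array. Ephx3 and Ephx4 were below the floor.

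Above the floor were 17 genes that make or release arachidonic acid or oxidise it by other routes. Their median was 0.06. Of these, 1 was at least 1.5-fold higher (Cyp4a12b) and 0 lower, beside 1.51% and 2.06% of all genes above the floor. Cyp4f14, which hydroxylates leukotrienes, differed by 0.53, and the secreted phospholipase A2 family genes Pla2g12a and Pla2g12b by -0.42 and 0.32. Ptgs2 and Alox5 were below 4.20 on both arrays. Alox12 (4.35 on the E4bp4-LKO array, 3.86 on the WT array) and Alox15 (3.46 on the E4bp4-LKO array, 4.45 on the WT array), lipoxygenase genes named after their values were seen, were above it on 1 array each with means below it, so no size is given for their differences.

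For Cyp2c70, the other genes of bile acid synthesis were set beside it. All 12 were above the floor, with a median of 0.18, against -0.02 for all genes above the floor. Of the 12, 11 had a positive difference and none reached 1.5-fold. The largest were those of Cyp7a1, the rate-limiting enzyme (0.55), Cyp7b1, an oxysterol hydroxylase (0.44), Cyp39a1, another sterol hydroxylase (0.43), and Akr1d1, a steroid reductase (0.37). Cyp2c70 (0.59) lay above all of them, but its gap to Cyp7a1 was smaller than 0.22, the standard deviation between probe sets of a gene.

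Of 23 regulators of liver P450 genes, 1 was at least 1.5-fold higher and 3 were lower, with a median of 0.01. Besides Nfil3, these were Bcl6, a repressor that opposes STAT5, at 6.22 on the E4bp4-LKO array and 7.42 on the WT array (-1.20), Dbp, a clock-driven activator, at 8.65 on the E4bp4-LKO array and 9.72 on the WT array (-1.08), and Onecut1, a liver homeobox factor, at 7.52 on the E4bp4-LKO array and 6.48 on the WT array (1.05). The receptor genes Nr1i3 (CAR) and Nr1i2 (PXR), with Hnf4a, named after their values were seen, differed by 0.08, -0.04 and 0.13. Dbp is strongly rhythmic in liver, and because the hour of collection is not given, an hour that differed between the pools and the genotype cannot be told apart.

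Genes outside Cyp2c that respond to CAR and PXR had differences on both sides of 0. Of 15 above the floor, with a median of -0.25, 3 passed 1.5-fold on the higher side and 5 on the lower side. The shares of all genes above the floor were 1.51% and 2.06%. Cyp2b13, Cyp2b9 and Gstm3, a glutathione transferase gene (-0.90), were on the lower side and Cyp3a44 on the higher side. Cyp2b13, Cyp2b9 and Cyp3a44 also belong to the other P450 genes and the female-biased genes, so their values are counted in each list. Cyp2b10, named after its values were seen, read 3.34 on the E4bp4-LKO array and 4.49 on the WT array. Its mean lay below the floor, so no size is given for its difference. Cyp2c55 and Cyp2c29, both known to respond to these receptors, differed by -0.60 and 0.14.

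Genes with sex-biased expression in mouse liver were listed because several P450 genes depend on the pattern of growth hormone. Both lists, like the others, were chosen with earlier results of these data known. Among all genes above the floor, 1.51% passed 1.5-fold on the higher side and 2.06% on the lower side. Of 11 male-biased genes above the floor, 6 passed 1.5-fold on the higher side and 0 on the lower side, with a median of 1.07. That count includes Hsd3b5, a steroid dehydrogenase gene, at 8.45 on the E4bp4-LKO array and 3.92 on the WT array. Its WT value was under 4.20, so it passed through the E4bp4-LKO array alone, and against the floor its difference was at least 4.25. With the 10 male-biased genes above 4.20 on both arrays, 5 passed 1.5-fold on the higher side and 0 on the lower side, with a median of 0.75. Of these, the farthest from 0 were Slco1a1 (2.14), Cyp4a12b (1.42) and Susd4 (1.31). Of 10 female-biased genes above the floor, 1 passed 1.5-fold on the higher side and 4 on the lower side, with a median of -0.27. The 4 farthest from 0 were Cyp2b13 (-2.99), Cyp2a4 (-1.38), Cyp3a44 (1.27) and Cyp2b9 (-1.02).

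Pericentral hepatocyte genes, the zone in which several Cyp2c genes are transcribed, differed by less than 1.5-fold. Of 10 above the floor, 8 had a negative difference, with a median of -0.10, against -0.02 for all genes above the floor. The shares of all genes on either side of 0 were not counted. Cyp1a2, a xenobiotic P450, differed by -0.27, Rhbg, an ammonium transporter, by -0.20, Tbx3, a transcription factor, by -0.19 and Oat, ornithine aminotransferase, by -0.17. Of 8 periportal genes above the floor, 7 had a positive difference, with a median of 0.12. Of these 8, 1 was at least 1.5-fold higher, beside 1.51% of all genes above the floor. The positive differences were led by Ass1 (0.65) and Cps1 (0.30), enzymes of the urea cycle. Hsd17b13, a lipid droplet protein gene, differed by -0.28 and Arg1, arginase, by 0.20. Ass1 was dim, at 5.59 on the E4bp4-LKO array and 4.95 on the WT array. Cps1 read 11.78 on the E4bp4-LKO array and 11.47 on the WT array.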

How the data were processed

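Liver RNA pooled from several male mice per genotype was hybridised to 1 array each, from 400 ng of RNA, per the labels' protocols. The deposited values are log2 intensities that the authors made with RMA in R 3.4.0, per the submitters' processing notes. Of 41345 probe sets, the platform annotation gave 1 symbol to 23521, several to 1814 and none to 16010; those with 1 symbol were averaged per gene. A difference is E4bp4-LKO minus WT, called at 1.5-fold among genes whose mean lay above the floor of 4.20. No test was made, since there are no replicates; the number of arrays limits the precision. The share of the 500 genes of like level that differed as much was added after the data had been seen. An intensity trend, where removed, was the running median over 401 genes. Promoters were aligned globally with Biopython 1.88. The protein comparison that had been planned was not run. Named are all members, Nfil3, the other Cyp2c genes and the 3 genes nearest to the extreme members. Also named are the 4 genes farthest from 0 in each list other than the cell markers (8 for other P450 genes). Genes named outside this rule include Por, Ephx3, Ephx4, Ptgs2, Alox5, Alox12, Alox15, Nr1i3, Nr1i2, Hnf4a, Cyp2b10, Cd4, Cd3g and Klrb1c. The members and lists were chosen with earlier results of these data known. Python 3.11.15 and pandas 2.3.3 were used. Calls made after removing the intensity trend were tested on simulated data. That simulation did not cover calls without trend removal or differences near the threshold.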

Additional observations from a re-analysis of the deposited data

How the results depend on the processing

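No paired analysis was possible because each genotype has 1 array. Lacking replicates, a member's difference or a median was held to have moved when it shifted by more than 0.22, the standard deviation between probe sets of a gene. None of the 36 recomputed member differences did (brightest probe set, intensity trend removed, centring, probe sets with several symbols): all 36 kept their sign, and the largest shift, 0.11, was that of Cyp2c29 with its brightest probe set. The median of the members also stayed within that limit under every setting tried.

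The 2 members at least 1.5-fold higher became 1 at 2-fold. The 1 lower member, Cyp2c55, became 0 with the intensity trend removed, with centring on the median, with the floor at the upper quartile, where it is not among the genes tested, and at 2-fold, and 2 at 1.3-fold. In the background, the 167 higher and 229 lower genes became 84 and 72 with the floor at the upper quartile, 295 and 365 with no floor, 572 and 685 at 1.3-fold, and 43 and 45 at 2-fold. With no floor, the medians of the epoxide hydrolase, male-biased and female-biased lists were -0.03, 0.75 and -0.04.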
